A study of Caenorhabditis elegans with 2 samples.

Results

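The 43 genes described here, called the members, act in DNA replication and the cell cycle of Caenorhabditis elegans. They were named by function, as classes reported as targets of the CCAAT-binding factor NF-Y in other animals, and the list was drawn up with earlier results of these data known. All 43 were found among the 19973 protein-coding genes of the nuclear chromosomes: 16 act in replication, 17 are cyclins, cyclin-dependent kinases (CDKs) or their direct regulators, 7 act in mitosis and 3 belong to the E2F-Rb group. The measurements came from chromatin immunoprecipitation with sequencing (ChIP-seq), with an anti-GFP antibody, of NFYA-2 in whole young adult worms. Both libraries came from strain RW12238, genotype st12238[nfya-2::TY1::EGFP::3xFLAG] I, in which a CRISPR insertion puts an eGFP tag on nfya-2, and the labels give them as 2 biological replicates of 1 group. Worms were starved as L1 larvae after bleaching, grown to 64 hours, and their chromatin was sonicated to fragments of 200 to 800 bp. All animals carried the tag and the data analysed here hold no untagged or other-stage worms, which leaves no conditions to compare. Whole animals were used, so weak binding in many cells and strong binding in few cells cannot be told apart.

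NF-Y is a trimer of A, B and C subunits, and its A subunit, which nfya-2 encodes, recognises the word CCAAT in DNA. In mammals, CCAAT boxes lie close to the starts of many genes of the G2 and M phases, among them genes for B-type cyclins and CDC25 phosphatases. Replication genes are classically driven by E2F with its DP partner and restrained by the retinoblastoma protein, LIN-35 in the worm, and the DREAM complex joins these proteins to the MuvB core. In the adult worm, dividing cells are mainly those of the germ line.

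The sequences that follow are the 201 bases centred on the summit of the strongest region in a gene's promoter, and they show the range of word content among the results that follow. Each is on assembly WBcel235 (the same sequence as ce11), on the minus strand, which is the coding strand of each gene, and overlaps no annotated gene. Capitals mark CCAAT on either strand (ATTGG is CCAAT on the opposite strand) and the E2F words TTTCCCGC, TTTGGCGC and TTTCGCGC on either strand. The promoter of rnr-2, at chrIII:4095292-4095492, held the single extended consensus near a member's summit, here GACCAATGG on the opposite strand and 34 bp from the summit. The region of pcn-1, at chrIV:4049648-4049848, was the strongest printed here from the members and had 1 CCAAT 55 bp from its summit. The region of cdc-25.3, at chrIII:8918108-8918308, ranked among the top 10% of promoters and held none of these words. The region of efl-1, at chrV:16965800-16966000, had TTTCCCGC at its summit. A pair of genes of a wider cell cycle list, lin-9 at chrIII:8904136-8904336 and hcp-3 at chrIII:9617044-9617244, had reproducible peaks with an E2F word and no CCAAT.
rnr-2: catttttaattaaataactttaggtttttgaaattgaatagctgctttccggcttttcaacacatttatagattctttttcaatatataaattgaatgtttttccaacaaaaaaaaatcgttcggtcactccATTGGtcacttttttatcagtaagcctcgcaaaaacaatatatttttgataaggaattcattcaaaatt
pcn-1: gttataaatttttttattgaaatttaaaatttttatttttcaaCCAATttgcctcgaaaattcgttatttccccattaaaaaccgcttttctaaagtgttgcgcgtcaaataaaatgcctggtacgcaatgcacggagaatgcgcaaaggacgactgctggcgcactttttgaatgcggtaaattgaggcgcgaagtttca
cdc-25.3: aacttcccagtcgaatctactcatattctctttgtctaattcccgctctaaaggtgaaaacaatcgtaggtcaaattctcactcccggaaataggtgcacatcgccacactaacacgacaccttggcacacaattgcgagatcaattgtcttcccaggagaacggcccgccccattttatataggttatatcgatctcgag
efl-1: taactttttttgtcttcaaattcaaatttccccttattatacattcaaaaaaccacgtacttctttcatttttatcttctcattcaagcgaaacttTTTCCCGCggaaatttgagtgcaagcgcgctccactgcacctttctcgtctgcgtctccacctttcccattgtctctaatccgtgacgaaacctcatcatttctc
lin-9: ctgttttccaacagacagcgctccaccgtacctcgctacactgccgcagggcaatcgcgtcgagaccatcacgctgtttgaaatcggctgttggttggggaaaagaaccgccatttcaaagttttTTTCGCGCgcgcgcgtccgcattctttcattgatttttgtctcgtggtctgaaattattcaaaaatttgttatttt
hcp-3: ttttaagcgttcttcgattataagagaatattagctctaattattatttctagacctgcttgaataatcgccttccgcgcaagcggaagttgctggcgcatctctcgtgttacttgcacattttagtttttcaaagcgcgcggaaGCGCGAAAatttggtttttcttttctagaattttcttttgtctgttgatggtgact

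The 43 genes ranked close to coding promoters in general, and 1 of them, rpa-2, had a strong and reproducible peak. A promoter was taken as 1000 bp upstream to 200 bp downstream of the gene start, and its signal as the highest value among the regions of the authors' ranked list whose summit lay in it. That list held 71547 regions, ranked by the irreproducible discovery rate (IDR), which scores how well a region's rank repeats between replicates, low values being the more reproducible. From it the authors drew a thresholded list, named conservative, of 281 peaks. The signal is the authors' own peak value, in their units. Of the members, 28 (65.1%) had a ranked region, beside 61.3% of coding promoters. Where a region was counted only for the coding gene with the nearest start, the order turned, with 19 members (44.2%) beside 53.2%. A conservative peak lay in 1 of 43 promoters (2.33%), beside 0.726% of coding promoters, a share at which 43 genes would give 0.312. Peaks in any of the 4 thresholded lists (conservative, the other series list, and 1 per replicate) gave the same gene alone, beside 1.05% of coding promoters. In the top 10% of all coding promoters, at a signal of 35.777 or more, were 5 members (11.6%), where the coding share would give 4.3. Among promoters with a region, this level was reached by 17.9% of members and 16.3% of coding promoters. The 5 were rpa-2, cyb-2.2, pcn-1, cdc-25.3 and mcm-4.

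The members with a region had a median signal of 27.7, beside 25.45 over the 12245 coding promoters with one, and 26.8 without rpa-2. Their regions ranged from 12.1 at cki-1 to 149 at rpa-2, with 18 above and 10 below the coding median. The median IDR was 0.634 for the members and 0.651 for all coding promoters, and 27 of the 28 member regions had an IDR over 0.1. At 0.1 or less were 1 of 28 member regions and 484 of 12245 coding regions. By rank over all 43, promoters without a region being tied at the bottom, the median member stood at percentile 61.4. This rank was not stable. It was 53.5 in the list of replicate 2 alone and 27.1 in that of replicate 1, 30.7 with a window of 500 bp upstream to 100 bp downstream, and 23.4 when regions counted only for the nearest coding start, the last 3 being the ties of promoters with no region. In replicate 1 the median coding promoter was at the same tie, at percentile 27.1. A region was held there by 46.5% of members and 45.8% of coding promoters. With the shorter window these shares were 39.5% and 38.6%, and with the nearest start only 44.2% and 53.2%. The 28 regions were distinct from each other.

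**Figure D1:**
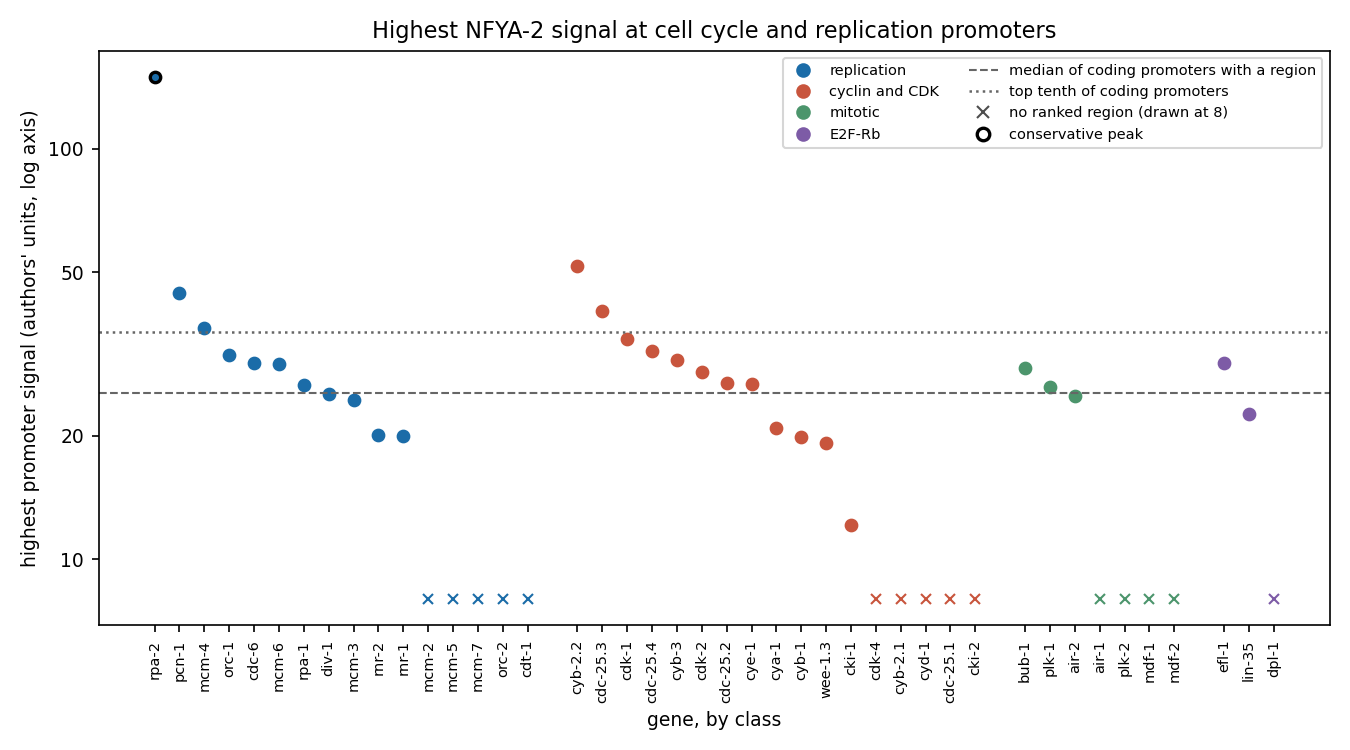
Signal of the strongest ranked region in the promoter of each member, in the authors' units on a log axis, grouped by role, with lines at the coding median and at the lowest signal of the top 10%. Crosses at the bottom mark the 15 members without a region, and the black ring marks a conservative peak. rpa-2 stands alone at 149 and the other members lie between 12.1 and 51.8.

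Among the replication genes, 11 of 16 had a region, with a median signal of 29.9. Replication protein A coats single-stranded DNA, and the promoter of its subunit gene rpa-2 had a signal of 66.9 in the first and 80.8 in the second replicate, and 149 in the reads of both. Both replicates were high, with an IDR of 0.000177. Only 10 coding promoters, rpa-2 included, reached this level. The region spanned chromosome I, 4769534 to 4769773, on WBcel235, with its summit 638 bp upstream of rpa-2, a CCAAT 6 bp away and no E2F word within 100 bp. A non-coding gene, the lincRNA M04F3.7, starts 591 bp from the summit, nearer than rpa-2. A second region 89 bp upstream of rpa-2 was weaker, with replicate signals of 18.4 and 23.5, a combined signal of 42.3 and an IDR of 0.175. The gene of the other measured subunit, rpa-1, had replicate signals of 13.95 and 14.3 and a combined signal of 26.5, close to the coding median.

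pcn-1 encodes PCNA, the sliding clamp of DNA polymerase, and had signals of 15.3 in the first and 28.9 in the second replicate and a combined signal of 44.5. Its second replicate was nearly double its first, and its IDR was 0.265. mcm-4, a subunit of the replicative helicase, went the other way, with 21.9 in the first, 13.6 in the second and 36.5 combined. Of the other helicase subunits, mcm-6 had a combined signal of 29.9 and mcm-3 one of 24.4, while mcm-2, mcm-5 and mcm-7 had no region. orc-1, a subunit of the origin recognition complex, had replicate signals of 10.3 and 18.6 and 31.4 combined, and orc-2 had no region. cdc-6, which with cdt-1 loads the helicase, had 8.85 and 18.005 and 30.1 combined, and cdt-1 had none. The polymerase alpha-primase subunit gene div-1 had a combined signal of 25.25, with 9.24 in the first and 24.0 in the second replicate. The lowest of the class were the 2 ribonucleotide reductase genes, with rnr-2 at 20.1 (replicates 10.7 and 14.6) and rnr-1 at 19.995 (8.98 and 11.07). Below the coding median, these values did not separate rnr-2, with its extended consensus, from rnr-1, which has no CCAAT in its promoter window.

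Of the cyclin and CDK class, 12 of 17 had a region, with a median signal of 27.7. The highest was the B-type cyclin gene cyb-2.2, with 25.28 in the first replicate, 20.9 in the second and 51.8 combined. Both replicates were above the typical coding promoter, and the IDR, 0.104, was the lowest of the members after rpa-2. Its close paralogue cyb-2.1 had no region in the ranked list, in the other series list or in either replicate's list. CDC25 phosphatases activate CDKs, and cdc-25.3 had 21.4 in the first and 14.2 in the second replicate and 40.2 combined. cdk-1, the mitotic CDK, had 12.3 and 26.1 and 34.4 combined, with the summit 33 bp upstream of its start and a CCAAT 25 bp from the summit. cdc-25.4 had 11.4 and 19.6 and 32.1 combined. The other members of the class with a region were cyb-3 at 30.6, cdk-2 at 28.6, cdc-25.2 at 26.8, cye-1 (cyclin E) at 26.8, cya-1 (cyclin A) at 20.9, cyb-1 at 19.8 and wee-1.3, an inhibitory kinase of CDK1, at 19.2. cki-1, a CDK inhibitor, was the lowest of all 28 at 12.1, with 9.56 in the first and 5.57 in the second replicate. cdk-4 and its partner cyclin gene cyd-1, cdc-25.1 and the second inhibitor gene cki-2 had no region.

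Of the mitotic class, 3 of 7 had a region, with a median signal of 26.2. The checkpoint kinase gene bub-1 had 18.04 in the first and 8.50 in the second replicate and 29.3 combined. Neither replicate's own list had a region in the bub-1 promoter. plk-1, a Polo kinase, had 11.8 and 17.2 and 26.2 combined, and air-2, the Aurora B kinase, had 15.5 and 15.01 and 24.9 combined. These were near the coding median. air-1 (Aurora A), plk-2 and the checkpoint genes mdf-1 and mdf-2 had none.

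In the E2F-Rb group, efl-1, an E2F gene, had 21.5 in the first and 12.2 in the second replicate and 30.1 combined. lin-35, the retinoblastoma gene, had 12.2 and 13.8 and 22.6 combined, below the coding median. dpl-1, the DP partner, had no region. Ordered by median percentile over all their genes, the replication class stood at 67.5, the E2F-Rb group at 61.4, the cyclin and CDK class at 56.8 and the mitotic class at 19.3, which is the percentile shared by all promoters without a region. That order depended on the settings. The cyclin and CDK class stood above the replication class in the other series list (70.1 and 63.9), with 2000 bp upstream (62.8 and 57.7), with the nearest start only (59.8 and 23.4), in unshared windows (55.5 and 37.5) and in replicate 1 alone (57.5 and 43.7). The signals of the classes overlapped widely, and no order of the classes is drawn from these values.

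The absence of a region is not a measured zero, since the files give no value outside the listed regions, and it was not a low rank in every list. Of the 15 members without one, 11 had a region in the longer series list of 121011 regions, at signals of 5.42 to 27.03. That list held a region in 84.5% of all coding promoters and 90.7% of all members. The other 4, cdt-1, cyb-2.1, air-1 and dpl-1, had none there either. In a replicate's own list 4 of the 15 had a region. Of all coding promoters, 45.8% had a region in replicate 1's list and 51.1% in replicate 2's. These shares were not counted over only the coding promoters that lack a region in the main list. cdk-4 was at 22.1 in replicate 2 (percentile 89.8) and at 27.03 in the longer series list (percentile 71.0), above the coding median there. mcm-2 was at percentile 68.4 in replicate 1, and mcm-5 and mdf-1 were at 56.6 and 66.0 in replicate 2.

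Many members had unequal signals in the 2 replicates, and rpa-2 was high in both. The ranked list carries a signal from each replicate for every region, here called first and second. Neighbouring regions can carry the same replicate values. At lin-35, 2 regions both had 12.2 and 13.8, at combined signals of 22.6 and 4.91. A replicate signal is therefore not always particular to 1 region. A replicate's own list can lack a region in the same promoter. That held for bub-1 in both replicates. In replicate 1 it also held for pcn-1, cdc-6, div-1, rnr-1, cdk-2, cyb-1, cdc-25.2 and lin-35. In replicate 2 it also held for mcm-3, orc-1, cyb-3, plk-1 and wee-1.3. Both replicates' own lists held a region for 14 of the 43 members, beside 5703 of 19973 coding promoters. At the members the larger of the 2 signals was a median of 1.68 times the smaller, and at most 4.13 times, at cdc-25.2 with 21.8 and 5.27. Over all coding promoters the median was 1.45 times. The second signal was the higher in 15 of 28 members and in 5927 of 12245 coding promoters. Ranked separately by each column, 1 of 28 members (3.57%), rpa-2, was in the top 10% of coding promoters with a region in both, beside 3.17% of those promoters. Across the 28 promoters Spearman's rho between the 2 signals was -0.137, and -0.268 without rpa-2, as against 0.206 over the 12245 coding promoters. From the 2 replicates' own lists, over the 14 members with a region in both, rho was 0.165, and -0.044 without rpa-2, as against 0.242 over 5703 coding promoters. With rpa-2 the sign for the members differed between these measures, and without it both values were negative. These correlations describe promoters of the same 2 libraries.

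**Figure D2:**
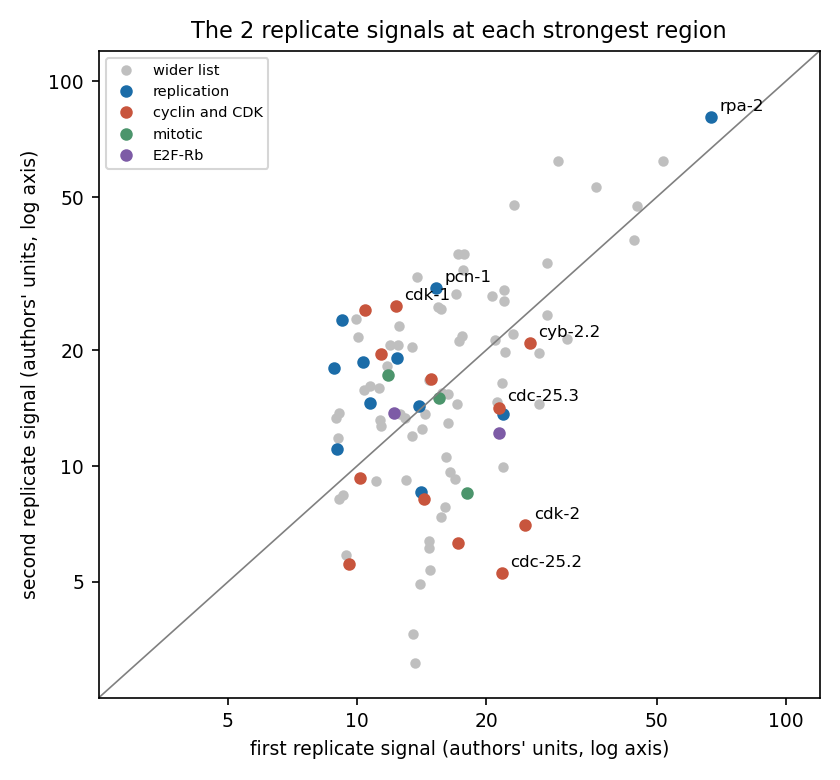
First against second replicate signal, in the authors' units on log axes, of the strongest promoter region of each member (coloured by class) and of the wider cell cycle list described later (grey). rpa-2, at 66.9 and 80.8, is high in both; the other members scatter on both sides of the line of equal signal.

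The members' summits lay farther from the gene start than those of coding promoters in general, at a median of 495 bp upstream beside 372 bp. Within 500 bp of the start were 14 of 28, beside 60.4% of coding promoters. Promoters were often shared, and 18 of 43 windows (41.9%) also held the start of another coding gene, as did 21.2% of coding windows. For 11 of the 28 regions (39.3%, beside 17.5% of coding promoters) the summit was nearer to the start of another coding gene. Inside a neighbouring gene lay 8 summits, a count not made over all coding promoters. Thus the summits assigned to orc-1, cdc-6 and bub-1 lay inside dhs-11, acin-1 and lin-61. Counted only for the gene with the nearest start, the replication median was 21.1, below the coding median of 25.02 under the same rule. In all, 5 members (11.6%) start within 500 bp of the end of a coding gene on the same strand, as worm genes in operons do, namely mcm-4, mcm-5, orc-2, rnr-1 and mdf-1. Of all coding genes, 19.3% do.

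**Figure D3:**
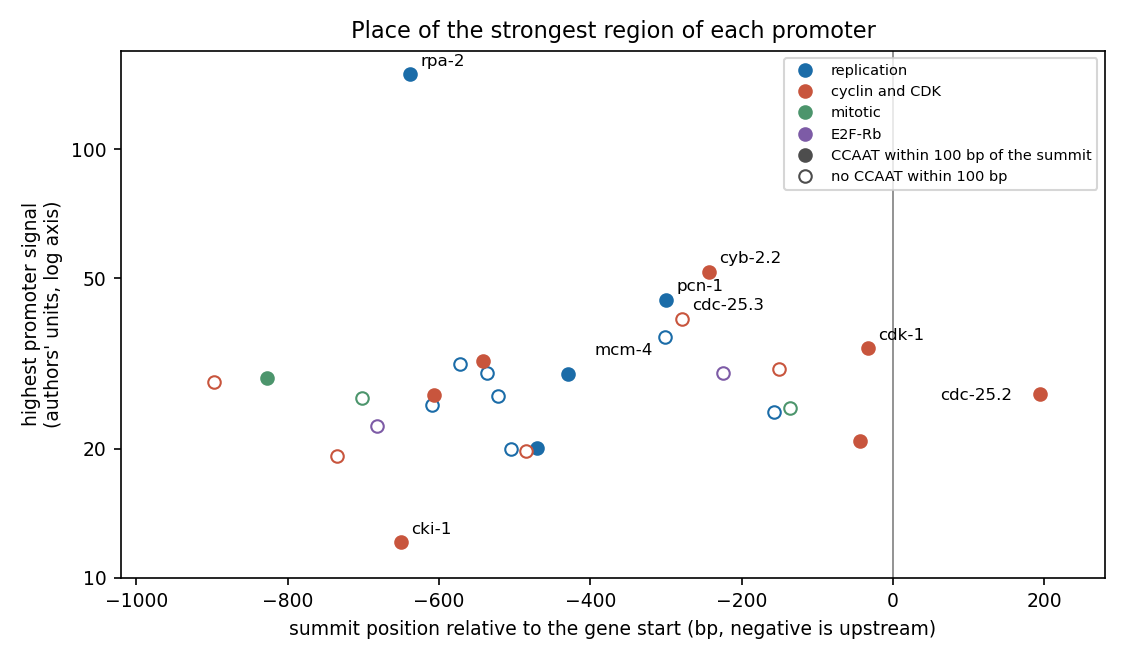
Distance of the summit from the gene start in bp (negative is upstream) against the signal in the authors' units, on a log axis, for the strongest promoter region of each member, with filled points where CCAAT lies within 100 bp of the summit. The high regions of cyb-2.2, pcn-1, mcm-4 and cdc-25.3 lie 243 to 301 bp upstream, and that of rpa-2 lies 638 bp upstream.

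CCAAT lay within 100 bp of the summit in 12 of the 28 member regions (42.9%), beside 35.6% of the strongest regions of coding promoters. At the summits of replicate 2 alone it was 12 of 25 (48.0%) beside 36.8%, but at those of replicate 1 alone it was 5 of 20 (25%) beside 36.2%, so the direction turned. Within 50 bp it was 6 of 28 (21.4%) beside 20.9%. The 12 within 100 bp were rpa-2, pcn-1, rnr-2, mcm-6, cdk-1, cyb-2.2, cya-1, cye-1, cdc-25.4, bub-1, cki-1 and cdc-25.2. Of these, cki-1 had the lowest signal of all 28, at 12.1, and cdc-25.2 had 3 copies around a summit inside the gene. The extended consensus, a CCAAT preceded by 2 purines and followed by C or G and then a purine, was in 1 of 28, rnr-2 (3.57%), beside 2.39%. Its signal of 20.1 was below the coding median. Over the whole 1201 bp window, CCAAT occurred in 36 of 43 members (83.7%) and in 92.5% of coding promoters. It was in all 17 cyclin and CDK windows and in 3 of 7 mitotic windows. Members had a median of 2 copies and coding promoters a median of 3. The extended consensus was in 3 members (6.98%), pcn-1, rnr-2 and mdf-2, beside 11.0%. Over the whole window the members' shares were thus below the coding shares, and near the summit above them. Neither difference was tested. Members with CCAAT near the summit had a median signal of 29.6 and those without had 26.4, while over coding promoters the values were 25.35 and 25.51.

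E2F words were counted more often in the members' windows than in coding promoters, a difference that was not tested. At least 1 of the 3 E2F words was in 20 of 43 windows (46.5%), beside 11.9% of the other coding promoters. Replication genes held it in 11 of 16 windows, cyclin and CDK genes in 8 of 17, the E2F-Rb group in 1 of 3 and the mitotic class in 0 of 7. rnr-2 had 4 copies and rpa-1 had 3. The genes with E2F words were spread over strong and weak signals. The 15 of these 20 with a region had a median of 29.9, beside 25.25 for the other members with a region. Over all coding promoters with a region, the medians with and without an E2F word were 26.98 and 25.23. Near the summit, an E2F word lay in 3 of 28 regions (10.7%), those of mcm-3, rpa-1 and efl-1, beside 3.22% of coding regions. The cell cycle homology word TTTGAA, through which DREAM acts in mammals, is short and was in 41 of 43 windows, where 97.6% of coding promoters have it. Within 100 bp of the summit it was in 15 of 28 (53.6%), beside 42.2%. All words were searched on both strands, and a match is letters in a window, not a shown site.

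**Figure D4:**
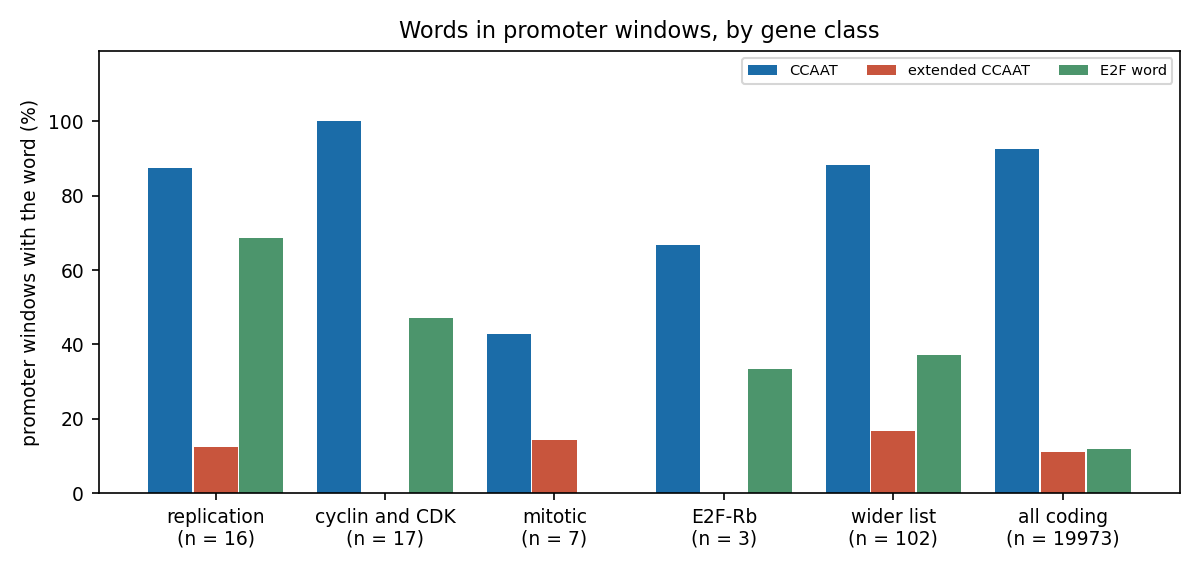
Percent of promoter windows that hold CCAAT, the extended consensus and an E2F word, for each class of members, the wider cell cycle list and all coding genes. E2F words are in 68.8% of replication windows, 37.3% of the wider list and 12.01% of coding windows, while CCAAT is in 92.5% of coding windows.

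A wider list of 102 other replication, chromosome and cell cycle genes had larger shares of strong regions than the 43, a difference that was not tested. Like the 43, this list was drawn up with earlier results of these data known, which limits what its shares can show. In it 7 genes (6.86%) had a conservative peak, where the coding share would give 0.740, and 9 had a peak in any thresholded list, where it would give 1.07. The top 10% held 27 (26.5%), where it would give 10.2. A region was found in 71 (69.6%), with a median signal of 30.1. Of the 7 with a conservative peak, cdc-48.1, a segregase ATPase with many roles outside the cell cycle, was highest, with replicate signals of 51.8 and 62.0 and 114 combined, and was in all 4 thresholded lists. lin-9, of the MuvB core, had 44.9 and 47.4 and 95.7 combined, its summit 105 bp upstream of its start. The gene lin-53, a chromatin-binding protein shared by MuvB and other complexes, had 36.0 and 53.0 and 87.1 combined. Another coding gene, nra-2, starts 220 bp from this summit, nearer than lin-53. The regions of cdc-48.1, lin-9 and lin-53 were high in both replicates.

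Of the centromere genes, hcp-3 (centromeric histone H3) had 29.5 and 61.9 and 89.99 combined, and hcp-4 (CENP-C) had 44.2 and 38.6 and 87.0 combined. The cytokinesis kinesin gene zen-4 had 23.3 and 47.8 and 71.3 combined, with a snoRNA gene 66 bp from the summit. top-2, a topoisomerase II gene, had 27.8 and 33.7 and 60.2 combined, with npp-3 starting 54 bp from the summit. E2F words lay within 100 bp of the summit at lin-9, hcp-3, hcp-4 and top-2, and CCAAT at top-2 alone. Of the 145 coding promoters with a conservative peak, 15.2% had an E2F word, 33.8% a CCAAT and 11.7% the extended consensus near the summit. Among all coding promoters with a region these shares were 3.22%, 35.6% and 2.39%. Near the summits of the 71 wider-list regions, 9 (12.7%) had an E2F word, 19 (26.8%) a CCAAT and 3 (4.23%) the extended consensus. These differences were not tested. In the other series list alone, the primase gene pri-1 and the cytokinesis gene cyk-4 had peaks as well, at summits inside the neighbours F58A4.6 and pdr-1.

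The shares of the wider list were above the coding shares also in promoters with no second coding start. There, 11 of 46 genes (23.9%) were in the top 10%, beside 9.15% of such coding promoters, and 5 (10.9%) had a conservative peak, beside 0.547%. In shared windows 16 of 56 (28.6%) were in the top 10%, beside 13.2%. Counted only for the gene with the nearest start, fewer wider-list genes qualified. The top 10% then held 16 of 102, where the coding share would give 10.2, and 5 had a conservative peak, beside 0.546%. Over the 71 regions of this list the 2 replicate signals had a Spearman's rho of 0.545, and 11 (15.5%) were in the top 10% in both. The median GC content around the summit was 40.3% in the wider list and 37.8% both in the members and in coding promoters. The part of GC content in these ranks was not tested.

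**Figure D5:**
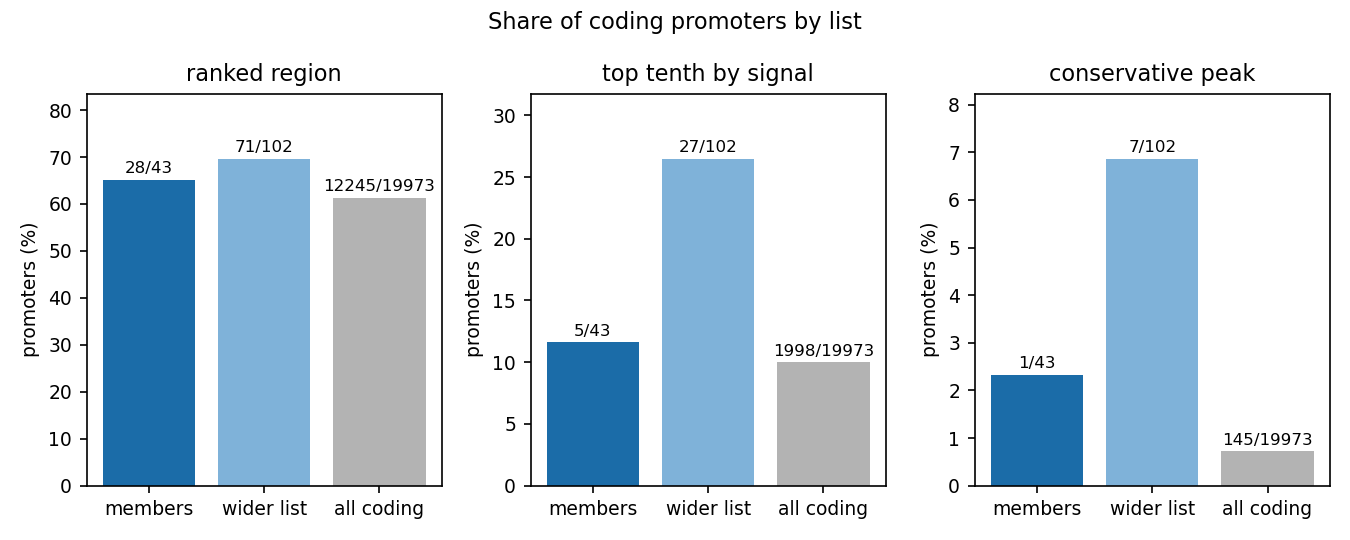
Percent of the promoters of the members, the wider list and all coding genes with a ranked region, in the top 10% and with a conservative peak. The members are near the coding shares, with 11.6% in the top 10%, and the wider list has 26.5% in the top 10% and 6.86% with a conservative peak. Both lists were drawn up with earlier results of these data known.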

How the data were processed

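ChIP-seq of NFYA-2::eGFP gave 2 biological replicates of 1 group. The deposited peak lists carry, for each region, a signal (the authors' own peak value, with no stated scaling) and, in ranked lists, −log10 of the global IDR, which the authors computed. Per the text deposited beside them, the lists use assembly ce11 and were made from alignments after filtering, with a control. No aligner or peak caller is given in the sources used here. Depth is unknown, so no interval was computed. The first replicate signal recurred in replicate 1's own list at 22 of 28 member regions and in replicate 2's at 0; the second recurred in replicate 2's at 16 and in replicate 1's at 2.

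Gene starts came from Ensembl release 115 (WBcel235), and a region counted for every gene whose window held its summit. Percentiles were taken among 19973 coding promoters, and words were searched on both strands with Python 3.11.15, pandas 2.3.3 and numpy 2.4.6. The scripts were tested on simulated data. No test was run: there is 1 group, and lists are described beside all coding genes. The members, lists and named genes were chosen with earlier results of these data known. Values were given for members with a thresholded peak, the 4 highest and the lowest of each class, the extended consensus or no region; further members were added for context. Of 109 names in the wider list, 102 were matched. Alternatives were other windows, starts, assignments and lists, each replicate alone, and other distances from the summit; those for the wider list were added after seeing the data.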

Additional observations from a re-analysis of the deposited data

How the results depend on the processing

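With the window cut to 500 bp upstream and 100 bp downstream, 0 members had a conservative peak, since the rpa-2 peak lies outside it. Only 17 members (39.5%, coding 38.6%) kept a region; their median signal was 29.9 (coding 24.1), the cyclin and CDK median 30.6, the mitotic 24.9 and the E2F-Rb 17.5. With 2000 bp upstream it was 27.5, below the coding 27.8, with cyclin and CDK at 30.6 and mitotic at 25.07. With every transcript start it was 29.3, and mitotic 27.7. Counting regions for the nearest coding start only gave 28.6, replication 21.1 and cyclin and CDK 29.6. It put 16 of 102 wider-list genes in the top 10% and left 5 with a conservative peak. In windows with no other coding start, 11 of 46 wider-list genes were in the top 10%. The other series list gave 25.25 (coding 23.03), replication 25.25, cyclin and CDK 26.8 and mitotic 21.6. Of the members, 3 were in the top 5%. CCAAT was in 6 members within 50 bp and in 36 over the window, the extended consensus in 3 over the window.

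From either replicate alone the members' median was 14.2 to 14.4, below the coding medians of 14.4 and 16.6, on the lower scale of 1 library. The ranges were 13.3 to 17.4 for replication, 14.3 to 14.5 for cyclin and CDK, 13.7 to 14.7 for mitotic and 13.0 to 21.5 for E2F-Rb. CCAAT was in 5 (of 20) to 12 (of 25) members, the extended consensus in 0 to 0, the conservative peak was found in 1 and the top 10% held 5. In the wider list, 2 genes had a thresholded peak in each replicate alone (7 in the conservative list), and 21 to 26 were in the top 10% of promoters. The causes were not tested. No paired analysis was possible because there is 1 group. With 2 libraries of unknown depth, regions of middling signal are limited by their replicate spread, and lacking a region does not show lack of binding.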
